A study of Mus musculus with 6 samples.

Results

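The endocrine FGF axis of the mouse liver was described here by 6 genes, Fgf21, its co-receptor Klb and the receptors Fgfr1, Fgfr2, Fgfr3 and Fgfr4. They were chosen by gene symbol, and they are 6 of the 12393 genes that had a probe set with a single symbol. Together they had 14 such probe sets, 1 for Fgf21, 2 each for Klb, Fgfr1, Fgfr2 and Fgfr3, and 5 for Fgfr4. All 14 are described, and no filter on low values was applied. Expression was measured in liver RNA of wild-type C57 mice at the age of 1 month, with 1 Affymetrix array per mouse. Livers of 3 mice had received an adenoviral vector to overexpress TFEB, a transcription factor of lysosomal and autophagy genes, and livers of 3 mice had received no injection. Sources used here do not give the promoter that drives TFEB. No liver that received a vector without TFEB was analysed here, so effects of injection, vector and TFEB cannot be told apart.

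FGF21 is a hormone made mainly by hepatocytes, and its gene is known as a target of PPAR-alpha in fasting and of ATF4 in amino acid shortage. It acts on cells that carry an FGF receptor together with the co-receptor beta-Klotho, encoded by Klb, above all on fat and brain. In the liver itself, FGFR4 with beta-Klotho receives the intestinal hormone FGF15 and lowers bile acid synthesis. FGFR1, FGFR2 and FGFR3 are receptor tyrosine kinases of the same family. The comparison asks which members of this axis differ between livers given the TFEB vector and livers left without injection.

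Livers given the vector had lower Klb, Fgfr4 and Fgfr3 transcripts and higher Fgfr2 transcripts by the brightest probe set of each gene. Klb stood at 53.2% and Fgfr4 at 46.4% of the level without injection. Fgf21 itself did not pass the test, and its mean was lower with the vector, not higher. Neither probe set of Fgfr1 passed. Of the 14 probe sets 1 rose, 4 fell and 9 did not pass the test, which was limma with a Benjamini-Hochberg adjusted p under 0.05 over 22626 probe sets. By the same test 25.0% of all probe sets were called, 12.3% higher and 12.7% lower, and among the 14 the share was 35.7%. The median difference was -0.20 over the 14 probe sets and -0.054 over all probe sets, on the log2 scale and as injected minus not injected. The exact permutation test over 6 arrays has 20 assignments and cannot give a p under 0.1, so adjusted p-values of limma are given below.

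Some facts of the arrays bear on every value. Across probe sets, correlations were 0.997 to 0.998 among livers without injection, 0.992 to 0.997 among injected livers and 0.974 to 0.988 between the groups. The 18 hybridisation spike-in probe sets read lower on every injected array, with a median difference of -0.32, and 23 of the 24 poly-A spike-in probe sets did so as well, with a median of -0.44. The part of the spike-ins in the results was not tested. When each array was shifted by its hybridisation spike-ins, the median difference of all probe sets moved from -0.054 to 0.25. The calls then changed from 2791 higher and 2871 lower to 10499 higher and 645 lower. Klb, Fgfr4 and Fgfr3 were still lower at their brightest probe sets (-0.60, -0.80 and -0.27) and Fgfr2 higher (0.79), all with an adjusted p of 0.0333 or less in limma. Tfeb read 7.50, 7.59 and 7.47 without injection and 7.48, 7.78 and 7.46 with it. That is a difference of 0.053, below what the arrays' spread resolves (limma adjusted p = 0.723). It was -0.051 without injected replicate 2, and 0.36 after the spike-in shift (adjusted p = 0.013). Sources used here do not give the transgene's sequence, so this probe set does not check the labels. The tissue had high hepatocyte markers in both groups, with means of 15.06 for albumin (Alb) in each. The markers Alb, Ttr, Apoa1 and Apoa2 stood at the percentile 100 of all levels. Whether signals at the top of the scale still follow the amount of RNA was not tested. The summed linear signal of 8 hepatocyte markers was 167071 to 170862 without injection and 158129 to 161480 with it. Of the 8, 1 was called, Tat, as lower, and 3 were lower and 0 higher at an unadjusted p under 0.05 in limma. In bulk tissue, fewer cells of a type and less RNA per cell cannot be told apart.

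**Figure D1:**
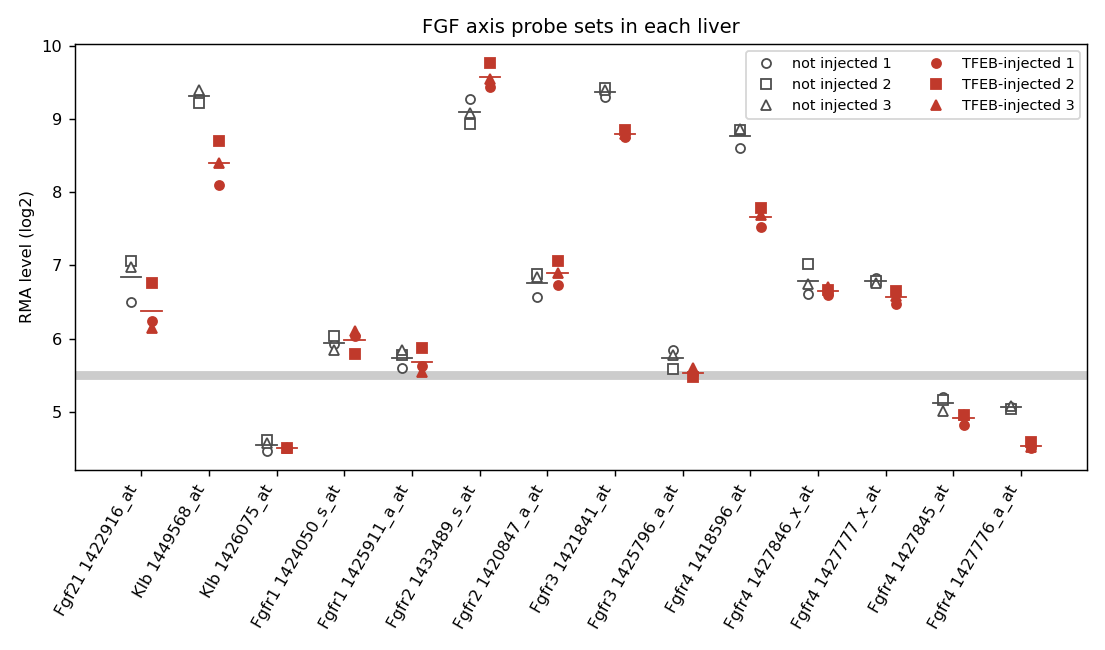
RMA level on the log2 scale (vertical axis) of the 14 probe sets in each of the 6 livers. Open grey symbols are livers without injection, filled red symbols are injected livers, symbol shapes give the replicate, short lines the group means, and the grey band the range of the arrays' lower quartiles. The groups lay apart in 7 probe sets and overlapped in the others.

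Fgf21, the ligand, had a single probe set (1422916_at). It read 6.50, 7.06 and 6.98 in the livers without injection and 6.24, 6.76 and 6.15 in the injected livers. Injected replicate 2 lay above the lowest liver without injection, so the groups overlapped. The difference was -0.46 ± 0.20 (SE, n = 3 per group), with a 95% interval of -0.92 to -0.0037, and it did not pass (limma adjusted p = 0.126, unadjusted p = 0.0486). Leaving out injected replicate 2 gave -0.65, which passed (limma adjusted p = 0.0195). The level stood below the median of all probe sets, at the percentile 42.4, and detection calls were not part of the data. After the spike-in shift the difference was -0.15 (adjusted p = 0.457).

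The promoter of Fgf21 is shown because it holds an E-box, the kind of motif to which TFEB binds, and an amino acid response element, the kind to which ATF4 binds. It covers 250 bases before the gene start on the minus strand of GRCm38.p6, chr7:45615491-45615740, from RefSeq, and capitals mark motifs found on either strand.
Fgf21: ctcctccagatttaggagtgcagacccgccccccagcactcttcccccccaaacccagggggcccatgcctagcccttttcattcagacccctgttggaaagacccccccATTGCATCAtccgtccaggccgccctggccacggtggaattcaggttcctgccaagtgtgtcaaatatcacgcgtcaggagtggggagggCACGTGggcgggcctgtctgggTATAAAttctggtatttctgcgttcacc
The first run in capitals is the amino acid response element searched as TGATGNAAT, found on the opposite strand from 140 to 132 bases before the start. The next is the E-box CACGTG, 50 to 45 bases before the start, and the last the TATA box TATAAA, 28 to 23 bases before it. The E-box was present in 6.02%, the amino acid response element in 0.816% and the TATA box in 12.4% of 32851 promoters of this length. The longer CLEAR motif of lysosomal genes, a palindrome to which TFEB binds, contains the E-box and was not in this window. Neither the direct repeat 1 element bound by PPAR-alpha with RXR nor TCAAGGTCA, a longer nuclear receptor element bound by ERR and LRH-1, was found. These motifs were chosen after the promoter had been read, a match is no proof of binding, and a missing match says only that these letters are not in this window.

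Klb, the beta-Klotho co-receptor, read 9.32, 9.22 and 9.39 without injection and 8.10, 8.70 and 8.40 with it at its brighter probe set (1449568_at). All injected livers lay below all others, and injected replicate 2 was nearest to them. The level fell 1.88-fold (difference -0.91 ± 0.14, SE, limma adjusted p = 0.00405). The spread among injected livers (SD 0.30) was larger than among livers without injection (SD 0.084). The other probe set (1426075_at) read 4.47 to 4.61 without injection and 4.50 to 4.51 with it, under the lower quartile of each of the 6 arrays. Its difference of -0.047 did not pass (limma adjusted p = 0.625), and it turned to 0.26 after the spike-in shift. RMA compresses low values, so at such a level this probe set is a weak check of the brighter one. Why the 2 probe sets differ was not tested. The mean of both gave -0.48 (limma adjusted p = 0.00611). Without variance moderation the call of the brighter probe set was lost (adjusted p = 0.0528).

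**Figure D2:**
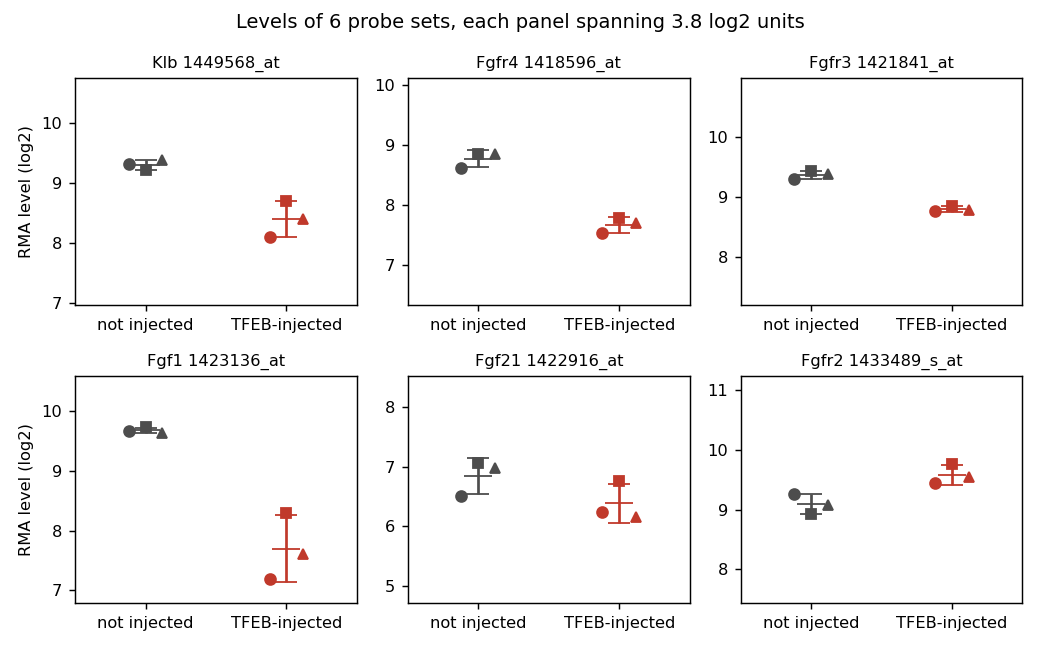
RMA level on the log2 scale (vertical axis) of Klb, Fgfr4, Fgfr3, Fgf1, Fgf21 and Fgfr2 in livers without injection (grey) and injected livers (red), each panel spanning the same number of log2 units. Points are livers, with shapes for the replicate, and bars the mean ± SD (n = 3). Klb, Fgfr4, Fgfr3 and Fgf1 lay lower in every injected liver, Fgfr2 lay higher, and the groups of Fgf21 overlapped.

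Fgfr4, the bile acid feedback receptor of hepatocytes, had 5 probe sets with unlike values. The brightest (1418596_at), designed on the RefSeq transcript, read 8.61, 8.85 and 8.86 without injection and 7.52, 7.78 and 7.69 with it. The groups lay far apart relative to their spread (SD 0.14 and 0.13). Its level fell 2.16-fold (difference -1.11 ± 0.099, SE, limma adjusted p = 0.000473), and 0.619% of all probe sets had a difference as low or lower. The other 4 probe sets were designed as pairs on 2 other GenBank sequences. In the first pair, 1427776_a_at read 5.06, 5.04 and 5.08 without injection and 4.50, 4.59 and 4.52 with it, and fell by 0.52 ± 0.062 (limma adjusted p = 0.00138). These levels were below the lower quartile of every array, and the call was lost after the spike-in shift (-0.21, adjusted p = 0.057). Its partner 1427777_x_at, whose suffix x marks probes that may bind other transcripts, read 6.76 to 6.83 and 6.47 to 6.65. That difference of -0.22 missed the threshold (limma adjusted p = 0.0579) and passed without injected replicate 2 (-0.26, adjusted p = 0.0312). In the second pair, 1427845_at gave a difference of -0.21 (limma adjusted p = 0.0963), again below every lower quartile, and 1427846_x_at one of -0.13 (limma adjusted p = 0.401).

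Against the 2 other Fgfr4 probe sets that read above the lower quartiles, 1427846_x_at and 1427777_x_at, the within-array difference of the brightest changed by -0.98 and -0.89. The groups did not overlap in either (two-sided exact permutation p = 0.1 each, the smallest possible). Both of these other probe sets carry the suffix x, so their probes may bind other transcripts. The changes therefore cannot show whether probe sets disagree on Fgfr4 itself. Against the remaining probe sets, 1427845_at and 1427776_a_at, it changed by -0.90 and -0.59 (two-sided exact permutation p = 0.1 each). These are the dimmer members of their pairs and lie so low that a difference to them says little. The mean of all 5 probe sets gave -0.44 (limma adjusted p = 0.00354). Which transcripts each set detects was not tested.

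Fgfr3 read 9.30, 9.43 and 9.39 without injection and 8.76, 8.85 and 8.79 with it at its brighter probe set (1421841_at). The groups were tight and apart, with SDs of 0.068 and 0.042. The level fell 1.49-fold (difference -0.57 ± 0.067, SE, limma adjusted p = 0.00128). The dimmer probe set (1425796_a_at) read 5.58 to 5.85 and 5.48 to 5.60, and the difference of -0.20 did not pass (limma adjusted p = 0.125). The within-array difference between them changed by -0.37 (two-sided exact permutation p = 0.1, the smallest possible). The dimmer probe set stood at the percentile 27, below the lower quartile on 1 array, so a difference to it says little.

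Fgfr2 moved the other way. Its brighter probe set (1433489_s_at) read 9.27, 8.93 and 9.08 without injection and 9.44, 9.76 and 9.54 with it. Each injected liver lay above each other liver, by a margin as narrow as 9.44 against 9.27. The level rose 1.40-fold (difference 0.48 ± 0.11, SE, limma adjusted p = 0.0197). The call was lost without not-injected replicate 2 (0.40, adjusted p = 0.0702), not-injected replicate 3 (0.48, adjusted p = 0.0666) or replicate 3 of the injected livers (0.50, adjusted p = 0.0504). The suffix s marks a probe set that more than 1 transcript can match. The other probe set (1420847_a_at) read 6.57, 6.88 and 6.84 against 6.73, 7.06 and 6.90, with a difference of 0.13 that did not pass (limma adjusted p = 0.415). That difference was 0.038 without not-injected replicate 1, and 0.44 after the spike-in shift, which passed (adjusted p = 0.0162). The mean of both Fgfr2 probe sets gave 0.31 (limma adjusted p = 0.0354). The change of the within-array difference between them, 0.35, came with groups that overlapped (exact permutation test, two-sided p = 0.2).

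Fgfr1, the receptor through which FGF21 acts on fat, had 2 dim probe sets. The first (1424050_s_at) read 5.93, 6.03 and 5.84 without injection and 6.04, 5.79 and 6.11 with it, and the second (1425911_a_at) 5.60, 5.78 and 5.84 against 5.62, 5.87 and 5.55. The groups overlapped in both. Differences were 0.049 (95% interval -0.19 to 0.28, limma adjusted p = 0.752) and -0.059 (-0.30 to 0.18, adjusted p = 0.708), and after the spike-in shift 0.36 (adjusted p = 0.0488) and 0.25 (adjusted p = 0.0629). On the scale of the deposited values these intervals do not reach a difference as low as that of the brighter Klb probe set. The Fgfr1 probe sets stood at the percentiles 32.1 and 28.3, and RMA compresses low values. The intervals therefore do not bound the change of the Fgfr1 transcript.

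**Figure D3:**
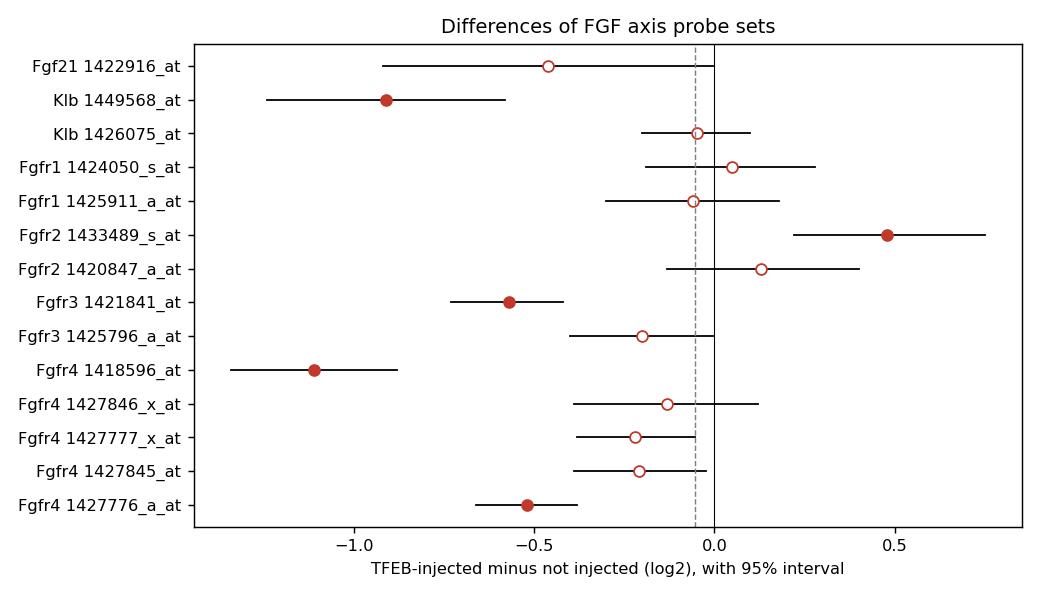
Difference of injected minus not-injected livers on the log2 scale (horizontal axis) for the 14 probe sets, with 95% intervals of limma. Filled points passed an adjusted p under 0.05, and the dashed line is the median of all probe sets at -0.054. The filled points are Klb, Fgfr3 and 2 of Fgfr4 on the left and Fgfr2 on the right.

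Across all 14 probe sets, the groups were apart in 7, of which 6 were lower and 1 higher with the vector. Among all probe sets 44.0% had groups that did not overlap, 25.9% lower and 18.1% higher. The 3 members that fell at their brightest probe set, Klb, Fgfr4 and Fgfr3, lay at percentiles 65.6 to 76.3 of the levels of all probe sets, and Fgfr2 at 79.1. Upstream sequence is shown for Klb and Fgfr4, the receptor complex whose transcripts fell together. Both are 250 bases before the gene start on the plus strand of GRCm38.p6 from RefSeq, chr5:65348161-65348410 for Klb and chr13:55152568-55152817 for Fgfr4. Neither held any of the 6 motifs searched, so no letters are in capitals.
Klb: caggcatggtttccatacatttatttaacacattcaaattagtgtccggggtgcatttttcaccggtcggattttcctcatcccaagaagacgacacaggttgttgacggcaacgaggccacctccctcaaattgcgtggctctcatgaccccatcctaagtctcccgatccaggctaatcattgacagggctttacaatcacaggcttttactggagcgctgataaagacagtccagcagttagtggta
Fgfr4: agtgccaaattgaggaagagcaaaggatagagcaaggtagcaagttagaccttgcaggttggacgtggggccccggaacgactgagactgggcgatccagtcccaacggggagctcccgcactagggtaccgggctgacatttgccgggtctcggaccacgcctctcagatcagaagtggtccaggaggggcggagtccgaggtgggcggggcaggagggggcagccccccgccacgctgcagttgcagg
The windows differ in composition, with 48.0% G and C for Klb and 64.0% for Fgfr4, against 59.6% for Fgf21 and a median of 52.4% over all promoters. Of the 6 members 5 had an entry in the promoter table, all but Fgfr1. The E-box, the amino acid response element and the TATA box were each found for Fgf21 alone among the 6 starts of these 5 genes.

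Related genes are given from lists by role, with each gene taken at its brightest probe set. Over all 12393 genes 27.1% were called, 13.8% higher and 13.3% lower, with a median difference of -0.049. Counts at an unadjusted p under 0.05, here and for cell markers, are given without the share of all genes at that threshold. That share cannot be below 27.1%, since each called gene also has an unadjusted p under 0.05. These counts are therefore a description only. Among 21 other FGF ligands 1 was called, and 4 were lower and 0 higher at an unadjusted p under 0.05. Fgf1, a local growth factor of the family that binds all FGF receptors, read 9.66, 9.73 and 9.64 without injection and 7.19, 8.29 and 7.61 with it. Every injected liver lay far below, and the level fell 3.94-fold (difference -1.98 ± 0.24, limma adjusted p = 0.00154). The other Fgf1 probe set read 9.59, 9.47 and 9.48 against 7.41, 8.26 and 7.31, a difference of -1.85 (limma adjusted p = 0.00162). Within arrays the difference between the Fgf1 probe sets changed by -0.13 (two-sided exact permutation p = 0.5). The endocrine ligands Fgf15, made in the intestine, and Fgf23, made in bone, did not pass (-0.16 and -0.11, limma adjusted p = 0.102 and 0.392). Of the 21 ligands 10 stayed under the lower quartile on all 6 arrays. Without injected replicate 2 there were 2 ligands lower.

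The next list held co-receptors, the decoy receptor Fgfrl1, heparan sulfate proteoglycans, enzymes that build their chains and the FGF21 protease Fap. Of its 15 measured genes 7 fell and 0 rose (median -0.25), while 9 were lower and 1 higher at an unadjusted p under 0.05. The syndecan Sdc2 fell 1.74-fold (-0.80 ± 0.11), the glypican Gpc1 1.80-fold (-0.85 ± 0.16), Gpc4 1.39-fold (-0.47 ± 0.064) and Sdc1 1.26-fold (-0.33 ± 0.073), with limma adjusted p-values of 0.0149 or less. The other falls were the syndecan Sdc4 (-0.27) and the chain-building enzymes Ext1 (-0.25) and Ext2 (-0.28). The count of falls was 4 without injected replicate 1 or not-injected replicate 2 and 3 without injected replicate 3 or not-injected replicate 3. Sdc1 lost its call without injected replicate 3 (adjusted p = 0.0534) or not-injected replicate 3 (adjusted p = 0.0601). After the spike-in shift 2 fell and 2 rose. The Klotho gene Kl, co-receptor of FGF23, and the decoy receptor Fgfrl1 did not pass (-0.32 and -0.17, limma adjusted p = 0.119 and 0.132).

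Of 18 genes that carry the receptor signal 3 rose, 1 fell and 14 did not pass (median -0.092). The small GTPase Nras rose by 0.69 ± 0.11 and the PI3-kinase subunit Pik3r1 by 0.82 ± 0.15, with limma adjusted p-values of 0.00437 and 0.00754. By the mean of its probe sets Pik3r1 was at 0.24 and did not pass (adjusted p = 0.052), nor did it pass without variance moderation (adjusted p = 0.0707). Pik3ca at 0.26 and the exchange factor Sos1 at -0.35 were also called (limma adjusted p = 0.0463 and 0.024), and each lost its call when any of 4 arrays was left out, namely replicate 1 or 3 of the injected and replicate 1 or 2 of the other livers (adjusted p 0.0568 to 0.133). With these arrays left out 0 genes of the list fell. Of 9 feedback inhibitors 2 rose, Spred1 by 0.60 ± 0.08 and Spred2 by 0.42 ± 0.079 (limma adjusted p = 0.00218 and 0.00844), and 0 fell (3 higher and 1 lower at an unadjusted p under 0.05). Without injected replicate 2 there were 4 higher and 1 lower. Spred2 read 0.096 by the mean of its probe sets (adjusted p = 0.33). The 7 others did not pass (limma adjusted p 0.0705 or more). They were Dusp6 (-0.11), Spry1 (0.038), Spry2 (-0.016), Spry4 (-0.21), Il17rd (-0.036), Cbl (0.32) and Rasa1 (0.24). Spry4 and Il17rd stayed under the lower quartile on all 6 arrays. Called genes made up 22.2% of this list, against 27.1% of all genes.

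Of 11 genes induced by the ERK branch 4 rose and 0 fell (median 0.70), with 8 higher and 0 lower at an unadjusted p under 0.05. The transcription factor Myc read 6.74, 6.68 and 6.35 without injection and 8.25, 7.88 and 9.25 with it (limma adjusted p = 0.0053), and the stress gene Ier3 rose 3.10-fold. Jun and Junb rose by 1.30 ± 0.30 and 0.70 ± 0.17. Without not-injected replicate 2 or 3 the count was 2, since Jun (adjusted p 0.0547 and 0.065) and Junb (0.0734 and 0.0657) were lost. Jun also lost its call without injected replicate 3 (0.0572) or not-injected replicate 1 (0.0533), and Junb without injected replicate 1 (0.0723). Egr1, an immediate target of ERK, read 8.58, 8.15 and 9.49 against 10.76, 9.90 and 9.04 and did not pass (limma adjusted p = 0.106). Leaving out injected replicate 3 gave 1.59, which passed (adjusted p = 0.045), and leaving out injected replicate 1 gave 0.73, which did not. Over all 6 arrays left out in turn the adjusted p was 0.045 to 0.287. Etv4 (-0.12) and Etv5 (-0.047) of the same list did not pass (limma adjusted p = 0.369 and 0.607). Etv5 stayed under the lower quartile on all 6 arrays. Genes of this list answer many stimuli besides FGFs.

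The regulators of the Fgf21 gene were divided. Of 21 in the list 3 rose, 6 fell and 12 did not pass. Ppargc1a, which encodes PGC-1 alpha, read 8.15, 7.61 and 8.04 without injection and 10.32, 10.14 and 10.05 with it, a rise of 4.71-fold (limma adjusted p = 0.000131). Pparg, a lipid-sensing nuclear receptor, rose by 1.42 ± 0.11 and the clock repressor Bhlhe40 by 0.99 ± 0.11. Nfil3, a bZIP repressor, fell 3.05-fold (-1.61 ± 0.13, limma adjusted p = 0.000319). Atf4, the factor of amino acid stress, fell 1.52-fold, from 11.04, 11.05 and 11.01 to 10.28, 10.54 and 10.47 (-0.60 ± 0.082, limma adjusted p = 0.00232). Ppara at 0.031 did not pass (95% interval -0.13 to 0.19, adjusted p = 0.771). Its sign turned without injected replicate 2 (-0.013), and after the spike-in shift it was 0.34 (adjusted p = 0.00765).

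Fgf21 can be set beside other targets of the same factors. Of 21 other PPAR-alpha targets 8 rose and 0 fell, with a median of 0.32, and 0 of them had a lower difference than Fgf21. Cd36, a fatty acid carrier, rose 13.4-fold, Vnn1, a pantetheinase, 6.64-fold, the pyruvate dehydrogenase kinase Pdk4 16.3-fold and the fatty acid hydroxylase Cyp4a14 13.5-fold, with limma adjusted p-values of 0.00268 or less. Of 20 other ATF4 targets 6 rose and 3 fell (median 0.13), and 2 had a lower difference than Fgf21. The stress protein gene Nupr1 rose 7.68-fold, Atf3 3.36-fold and the translation repressor Eif4ebp1 1.70-fold, whereas Atf5 fell 1.72-fold, all with limma adjusted p-values of 0.00255 or less. The count of falls in this list was 1 without replicate 1 or 3 of the injected or replicate 2 or 3 of the other livers. These lists were chosen with earlier results known, and the place of Fgf21 in them is a description.

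**Figure D4:**
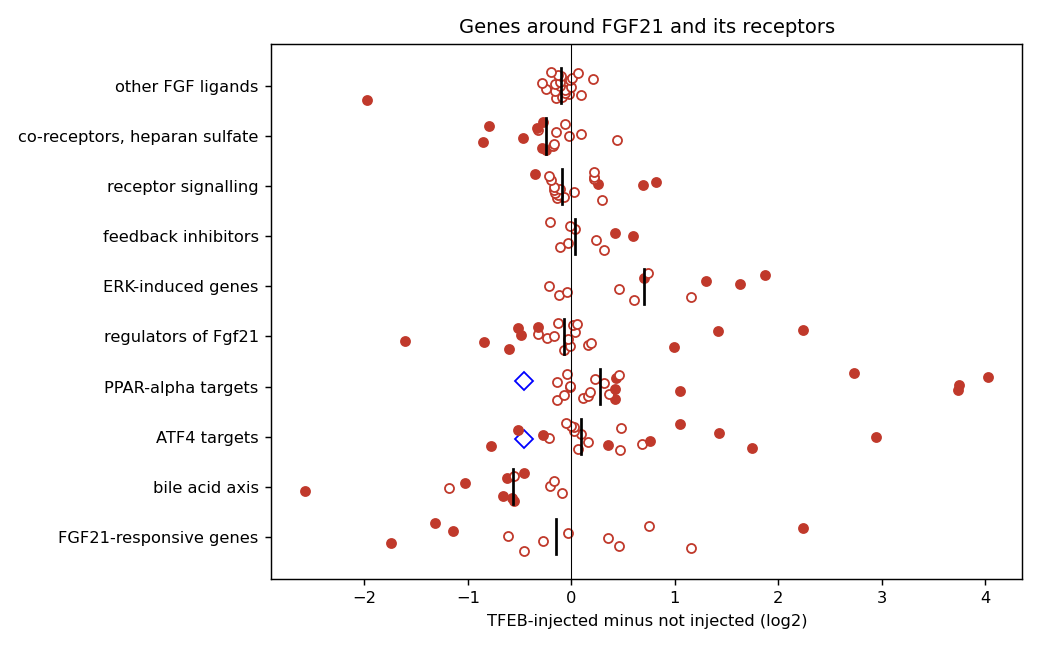
Difference of injected minus not-injected livers on the log2 scale (horizontal axis) for genes of the 10 lists (vertical axis), each at its brightest probe set. Filled points passed limma with an adjusted p under 0.05, black bars are list medians, and blue diamonds mark Fgf21. Fgf21 is the lowest point among the PPAR-alpha targets, and Fgf1 at -1.98 lies far left of the other ligands.

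Genes of bile acid synthesis, conjugation and transport, with nuclear receptors that regulate them, formed the next list. Of 12 measured 7 fell, 0 rose and 5 did not pass (median -0.56). At an unadjusted p under 0.05, 11 were lower and 0 higher, and after the spike-in shift 5 fell and 0 rose. The sterol hydroxylase Cyp27a1 fell by 0.66 ± 0.08, the bile salt pump Abcb11 by 0.55 ± 0.07, the nuclear receptor Nr5a2 by 0.62 ± 0.08 and the oxysterol hydroxylase Cyp7b1 by 2.57 ± 0.41 (limma adjusted p 0.00435 or less). Cyp7a1, the rate-limiting enzyme and main target of the receptor complex, read 10.25, 10.31 and 10.51 without injection and 10.06, 10.23 and 10.50 with it. The groups overlapped, and the difference of -0.09 did not pass (95% interval -0.38 to 0.20, limma adjusted p = 0.626). Its sign turned without injected replicate 1 (0.013). The dimmer Cyp7a1 probe set (1422100_at) read 8.22, 7.91 and 8.12 against 7.62, 7.92 and 7.85, and its difference of -0.29 did not pass either (95% interval -0.54 to -0.032, limma adjusted p = 0.095, unadjusted p = 0.0323). The cholic acid enzyme Cyp8b1 read 11.66, 11.72 and 11.75 against 9.79, 11.52 and 10.27. Injected replicate 2 was close to the livers without injection, the difference of -1.18 missed the threshold (limma adjusted p = 0.0576). Leaving that liver out gave -1.68 (adjusted p = 0.000117). Nr0b2, the repressor SHP, read 10.21, 9.56 and 10.34 without injection and 8.89, 9.56 and 8.56 with it. The groups overlapped at their replicates 2, and the level fell by 1.03 ± 0.28 (limma adjusted p = 0.0336). Leaving out 1 array ended that call for replicates 1 (0.0994) and 3 (0.0968) of the injected and 1 (0.0987) and 3 (0.112) of the other livers.

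Of 12 liver genes reported to answer FGF21, 1 rose and 3 fell. Ppargc1a rose as given above. G6pc, the last enzyme of glucose release, fell 3.34-fold (-1.74 ± 0.13), the lipogenic factor Srebf1 2.50-fold (-1.32 ± 0.12) and Pck1 of gluconeogenesis 2.21-fold (-1.14 ± 0.14), with limma adjusted p-values of 0.0017 or less. The count of rises was 2 without replicate 2 or 3 of the injected or replicate 1 of the other livers.

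Markers of other cell types also differed beside these results. Of 10 endothelial markers 5 were called by limma, all higher (6 higher and 1 lower, Eng, at an unadjusted p under 0.05). The summed linear signal of the 10 was 3940 to 4420 without injection and 5520 to 6460 with it. Of 6 bile duct markers 0 were called by limma (1 higher and 1 lower at an unadjusted p under 0.05), with sums of 353 to 371 and 310 to 469, and Krt7 and Cftr stayed under the lower quartile on all 6 arrays. Of 10 stellate cell markers 0 were called by limma (3 higher and 0 lower at an unadjusted p under 0.05), with sums of 6190 to 6970 and 6640 to 9610. Without injected replicate 2 the stellate marker Col1a2 (0.92, adjusted p = 0.000135) and the bile duct marker Epcam (0.80, adjusted p = 0.00133) passed. Of 8 Kupffer cell markers 2 rose and 2 fell, with sums of 5240 to 6910 and 6130 to 7140. The part of these cells in the Fgfr2 rise and in the other results was not tested.

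The genes whose values over the 6 arrays were most like those of a member were found by the root mean square distance after subtracting each probe set's mean without injection. For Fgf21 they were Fpr-rs4 (0.107), Ccl28 (0.111), Adgrv1 (0.119), Wnt8a (0.12) and Chrm1 (0.125), in log2 units. Fpr-rs4 read 6.18, 6.60 and 6.17 in the injected livers, with replicate 2 the highest of them as for Fgf21. It was chosen for likeness over these same arrays, so the shared pattern is no separate observation. For the brightest Fgfr4 probe set they were Lama3 (0.0557), Cpox (0.0577), Itih1 (0.0684), Ero1b (0.0744) and Cyp2d13 (0.0937). Cpox, an enzyme of heme synthesis, read 10.73, 10.94 and 10.96 against 9.52, 9.91 and 9.72, and Itih1, a plasma protein gene of hepatocytes, 12.07, 12.15 and 12.25 against 10.98, 11.19 and 10.98. This measure includes the difference between the groups.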

How the data were processed

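RNA of 6 livers was measured on Affymetrix arrays, 1 per mouse and 3 per group. The authors deposited log2 levels, 1 for each probe set. Per the submitters' processing notes, affy and RMA (robust multi-array averaging) were used, with no version stated; sources used here give no filter. RMA equalises arrays, so a shift of all transcripts would not be seen, and it compresses low values. Detection calls were not part of the table, and with 6 arrays precision is limited by their number.

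The table held 22690 probe sets, 64 of them controls, which were left out of the tests. In GEO's platform annotation 20380 probe sets had 1 symbol, 691 had several and 1555 had none. Of these genes 12369 of 12393 were found in RefSeq's table of GRCm38.p6, and 0 symbols changed. Differences were tested with limma 3.58.1 (R 4.3.3; lmFit and eBayes, prior degrees of freedom 3.61, no covariate), two-sided, and p-values were adjusted over all 22626 probe sets. Errors are standard errors of that fit. Within-array differences between probe sets were tested by exact permutation. The labels call the arrays biological replicates.

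Members and lists were chosen with earlier results of these data known. Named list genes were up to 4 called genes with the smallest p, or the gene with the smallest p where none was called, and always Fgf15, Fgf23, Kl, Fgfrl1, Tfeb, Ppara, Ppargc1a, Atf4, Cyp7a1, Cyp8b1, Nr0b2 and Egr1; Frs2 was on that list and was not analysed here. By limma, a further 4 marker lists gave 0 of 7 lymphocyte (1 higher and 1 lower at an unadjusted p under 0.05), 1 of 5 neutrophil, 1 of 3 red cell precursor and 1 of 6 pancreas, muscle and fat genes called. Alternatives were the replicate block, an intensity trend, no moderation, a filter at the median level, a second quantile normalisation, median centring, the spike-in shift, array weights, gene summaries and leaving out each array. The fits were tested on simulated data. Python 3.11.15, numpy 2.4.6, pandas 2.3.3 and matplotlib 3.10.9 were used.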

Additional observations from a re-analysis of the deposited data

How the results depend on the processing

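The falls of Klb, Fgfr3 and Fgfr4 at their brightest probe sets kept their direction and their calls under each alternative run, except Klb without variance moderation (-0.91, adjusted p = 0.0528). Their ranges over arrays left out were -1.06 to -0.76, -0.61 to -0.54 and -1.19 to -1.04. Fgf21 ranged from -0.65 to -0.34 and passed with array weights (-0.62, adjusted p = 0.0203). The rise of Fgfr2 ranged from 0.39 to 0.57 and was lost without moderation (0.48, adjusted p = 0.098). Fgfr1 ranged from -0.016 to 0.15 at its first probe set and from -0.15 to 0.006 at its second, and read -0.0054 by the mean of its probe sets. Tfeb ranged from -0.051 to 0.11, Ppara from -0.013 to 0.078 and Cyp7a1 from -0.21 to 0.013. Members called higher numbered 0 to 1 and lower 4 to 6 with arrays left out.

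The labels do not say whether same-numbered livers share more than a number. The correlations of their deviations were 0.14, 0.085 and 0.022, against -0.19 to 0.061 for livers of unlike number. Replicate 3 without injection correlated best with injected replicate 1 (0.033), so not every liver matched its own number best. These few correlations cannot decide whether the livers were paired. With the replicate block Fgf21 passed (-0.46, adjusted p = 0.0476), Nr0b2 and Pik3ca did not (adjusted p = 0.0668 and 0.0684), Kl, Cyp8b1, Epcam, Ccl28 and Chrm1 passed (adjusted p = 0.0212, 0.0401, 0.0195, 0.0352 and 0.0162), 2 ligands and 1 PPAR-alpha target, Fgf21 itself, were lower, and all calls numbered 5471 against 5662.

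The spike-in shift moved most. Members called higher became 4, and those with a turned sign were the dim Klb probe set (0.26), the second Fgfr1 probe set (0.25), the second Fgfr3 probe set (0.11) and 3 Fgfr4 probe sets (0.17, 0.088 and 0.10). It also turned Fgf15 (0.14), Fgf23 (0.20), Fgfrl1 (0.14), Cyp7a1 (0.22) and Cd3e (0.11). Fgfr1 became 0.36 and Tfeb 0.36. Genes called higher became 5 ligands, 2 co-receptors, 9 signalling genes, 5 feedback inhibitors, 9 ERK-induced genes, 10 Fgf21 regulators, 15 PPAR-alpha targets, 15 ATF4 targets and 5 FGF21-responsive genes. Genes called lower became 2 co-receptors, 0 signalling genes, 3 regulators and 1 ATF4 target, and over the 10 lists together 71 were higher and 15 lower, against 26 and 28. Without moderation 0 members were higher, and the lists had 1 signalling gene higher and 2 lower, 0 ERK-induced genes higher, 4 PPAR-alpha targets higher, 4 bile acid genes lower and 14 genes higher over all. Gpc1, Pik3r1, Sos1, Pik3ca, Ier3, Myc, Jun, Junb, Cyp4a14, Cyp7b1 and Nr0b2 lost their calls there (adjusted p 0.0511 to 0.154). All probe sets called were then 1373 higher and 1519 lower.

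Array weights gave 2 ligands lower, 1 co-receptor higher, 1 feedback inhibitor lower, 1 PPAR-alpha target lower, and 3 higher and 5 lower FGF21-responsive genes. The intensity trend gave 1 PPAR-alpha target lower and 2 FGF21-responsive genes higher, and the filter at the median level 0 signalling genes lower and 2 FGF21-responsive genes higher. A second quantile normalisation gave 2 signalling genes lower and turned Ppara (-0.0036) and the dim Klb probe set (0.0087), and gene means left 1 feedback inhibitor higher. The cause of these changes was not tested. With arrays left out the lists ranged as follows: ligands 1 to 2 lower, co-receptors 0 to 1 higher and 3 to 7 lower, signalling 2 to 4 higher and 0 to 1 lower, feedback inhibitors 2 to 4 higher and 0 to 1 lower, ERK-induced genes 2 to 6 higher, PPAR-alpha targets 7 to 12 higher and 0 to 1 lower, ATF4 targets 6 to 8 higher and 1 to 4 lower, and FGF21-responsive genes 1 to 2 higher and 3 to 4 lower. All probe sets called higher ranged from 1696 to 3422 and lower from 1539 to 3690.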
